A study of Mus musculus with 6 samples.

Results

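The proteasome genes described here are the 51 genes whose symbol begins with Psm, a letter from a to g and a digit, out of 22063 genes in the table. They code for 8 alpha and 7 beta subunits of the 20S core, the thymus beta subunit Psmb11, 17 subunits of the 19S cap (6 ATPases and 11 others), 5 immunoproteasome genes, 7 assembly chaperones and 3 other activators or inhibitors. A further 3 genes carry such a symbol but are not subunits of either particle: Psmc3ip and Psme3ip1, named as partners of a subunit or activator, and Psme2b, a copy of Psme2.

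RNA-seq was done on cardiac fibroblasts from mice whose Tet3 gene is floxed, that is, flanked by sites that the Cre recombinase cuts. Tet3 codes for an enzyme that oxidises methylated cytosine in DNA. A control adenovirus coding for GFP was given to the cells of 3 libraries (GFP, genotype Control), and an adenovirus coding for Cre to those of the other 3 (CRE, genotype Tet3 knockout). Every culture of both groups was then treated with TGF-b, a growth factor that activates fibroblasts, so an effect of TGF-b itself could not be compared. The loss of Tet3 and the presence of Cre came together and cannot be told apart. The study describes the experiments of this set as done on biological replicates, and the labels do not say whether the 3 libraries of a group came from separate cultures or animals. The p-values measure the spread between these libraries.

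The proteasome is the barrel-shaped protease that degrades proteins tagged with ubiquitin. Stacked rings of alpha and beta subunits form the 20S core, whose chamber holds the proteolytic sites, and the 19S cap binds ubiquitin chains, removes them and feeds the unfolded substrate inward with its ATPase ring. In cells exposed to interferon, the catalytic subunits Psmb6, Psmb5 and Psmb7 can be replaced by Psmb9, Psmb8 and Psmb10, and the activator made of Psme1 and Psme2 can take the place of a cap. This immunoproteasome makes peptides for presentation on class I molecules.

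Tet3 (chr6:83362373-83459084, GRCm38) was at 64.9, 54.4 and 51.96 CPM (read counts relative to library depth, scaled by TMM) in GFP replicates 1 to 3 and at 34.5, 35.9 and 33.6 CPM in the CRE replicates, a log2 fold change of -0.72 ± 0.08 (SE, edgeR quasi-likelihood adjusted p = 5.36e-05). Total counts per library were between 17002126 and 20343590, so that a count of 0 allows up to 0.147 to 0.176 CPM, counting error only. The 8 fibroblast markers of a list summed to between 29251 and 30418 CPM in GFP and between 18095 and 19506 CPM in CRE libraries, led by Col1a1, and 7 of them passed the test as lower. The 10 leukocyte markers summed to 58.6 to 66.4 CPM against 35.2 to 38.4 CPM and 3 of the 6 tested were lower, led by Cd14, with the pan-leukocyte gene Ptprc at no more than 0.564 CPM in any library. The 6 endothelial markers summed to 386 to 431 CPM against 174 to 201 CPM, with 5 lower. Cardiomyocyte markers reached no more than 0.933 CPM, with Myh6 at 0. In these bulk samples, fewer cells of a type and less RNA per cell cannot be told apart.

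Of 50 proteasome genes tested, 11 rose and 4 fell in CRE (adjusted p threshold of 0.05, edgeR quasi-likelihood test, Benjamini-Hochberg over all 12862 genes tested), and 35 did not pass. That is 30.0% of the proteasome genes, against 51.2% of all genes tested (25.5% higher and 25.7% lower). Among the 3557 genes whose mean level lay within the range of the core and cap subunits, 62.1% passed, 28.5% as higher and 33.7% as lower. The median log2 fold change of the 50 genes was 0.05, against 0.01 over all genes, and their median absolute change was 0.13, against 0.25 over all genes. By the fold threshold of the study's methods, above 1.5 or below 0.66 at an unadjusted p under 0.05, no proteasome gene was higher and 1, the testis subunit Psma8, was lower, against 7.52% higher and 10.3% lower over all genes. The groups did not overlap for 25 of the 50, against 59.6% of all genes, and the 15 genes that passed were all among these. Psmb11 was not tested, since it had at most 1 count in a library.

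**Figure D1:**
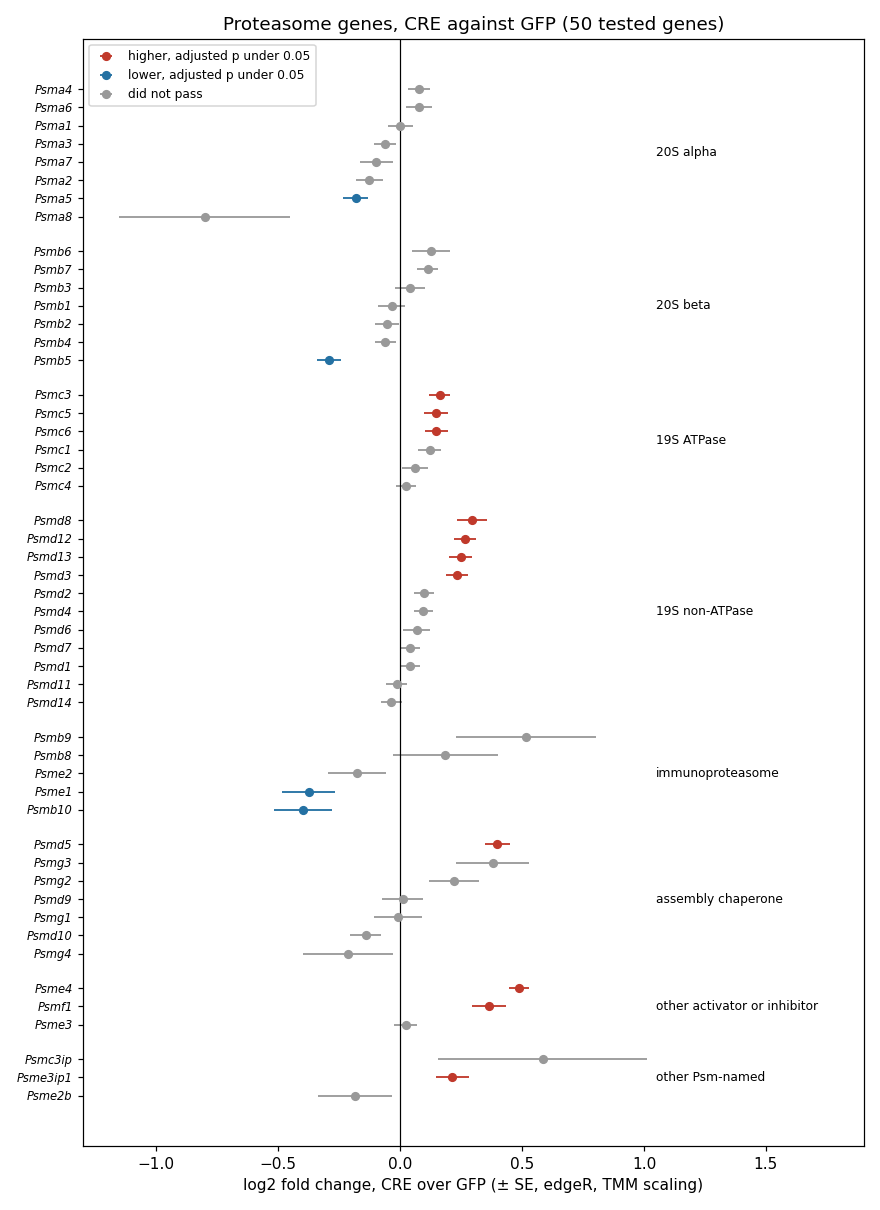
Log2 fold change of each of the 50 tested proteasome genes, CRE over GFP, with bars of 1 SE, grouped by role. Red and blue points passed at an adjusted p under 0.05 as higher or lower, and grey points did not. Cap genes with a red point sit between 0.15 and 0.29, while the 20S core holds no red point and its blue points are Psmb5 and Psma5.

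The scale of the libraries bears on these directions. With library size alone in place of TMM, the median of all genes moved by 0.16 on the log2 scale. Then 30 proteasome genes passed as higher and 1 as lower, beside 5529 and 2083 of the 12862 genes tested. On the FPKM values (fragments per kilobase of transcript, relative to library depth) deposited by the authors the median moved by 0.13. There 29 proteasome genes were higher and 1 lower, beside 4976 and 1916 of all genes. Directions below are therefore relative to the typical gene of these libraries, and ratios between proteasome genes within a library, which do not depend on how counts are scaled between libraries, are given where they matter.

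Levels can be compared between genes only per transcript length, on the FPKM scale. Without the tissue-restricted Psma8 and Psmb11, the 14 core genes lay between 42.2 FPKM (Psma2, 42.2 ± 3.05, SD, n = 3) and 106.9 FPKM (Psma4, 107 ± 4.03) in GFP, a 2.53-fold range. The 17 cap genes lay between 49.4 ± 0.523 FPKM (Psmd3) and 116 ± 1.86 FPKM (Psmd2, a scaffold of the cap base that binds ubiquitin receptors), a 2.35-fold range. In CRE the ranges were 2.94-fold for the core and 2.40-fold for the cap.

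Most immunoproteasome and all chaperone genes lay lower on that scale, while Psme2 lay within the range of core and cap genes. Among the immunoproteasome genes, Psmb9 was at 1.75 ± 0.816 FPKM in GFP, Psmb10 at 17.6 ± 2.88, Psmb8 at 18.9 ± 6.25, Psme1 at 40.7 ± 5.75 and Psme2 at 60.6 ± 11.6. In that order only the neighbours Psmb10 and Psmb8 overlapped over the 3 GFP libraries. Assembly chaperones ran from 5.17 ± 0.392 FPKM (Psmg3) to 25.99 ± 1.83 FPKM (Psmd10), in each case below every core subunit other than Psma8 and Psmb11. Psma8 was at 0.9203 ± 0.291 FPKM.

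**Figure D2:**
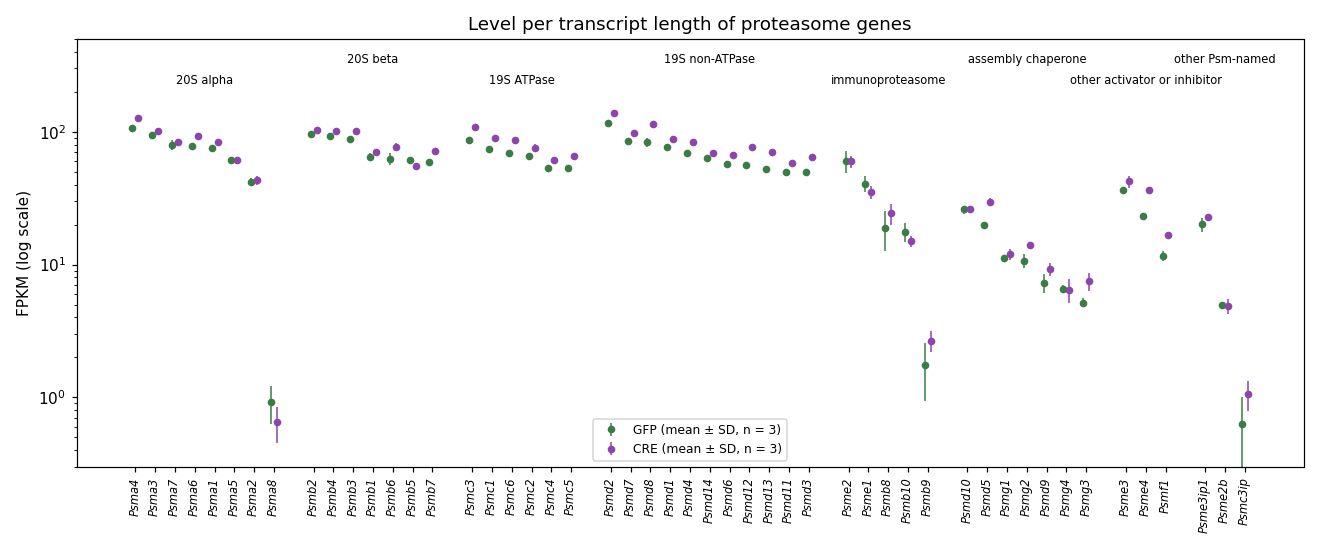
FPKM of 50 proteasome genes on a log axis (Psmb11, near 0, left out), as the mean of 3 libraries with bars of 1 SD, GFP in green and CRE in purple, ordered within each role by the GFP level. Core and cap genes other than Psma8 lie within a band from 42.2 to 139 FPKM, and immunoproteasome and chaperone genes lie mostly under it.

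The promoters of proteasome genes were searched for letters of known elements, because subunit genes are known to respond to such factors as a set. RefSeq windows (GRCm38.p6) from 250 bases before to 50 bases after a transcript start matched 43 of the 51 genes, with 47 promoters, and 32851 promoters of 300 bases served as the background, both strands searched. TGACNNNGC, the antioxidant response element to which Nfe2l1 and Nfe2l2 bind, was in 6 of 47 (12.8%), against 12.4% of all promoters. The 6 were those of Psmb5, Psmb6, Psmc6, Psmd9, Psmd12 and Psme4, and so held a gene that fell in CRE, 3 that rose and 2 that did not pass. The GC box GGGCGG was in 25 of 47 (53.2%) against 35.7%, in 10 of 15 cap promoters and 5 of 12 core promoters. It was also in 4 of 6 immunoproteasome and 4 of 6 chaperone promoters. The CCAAT box was in 16 of 47 (34.0%) against 37.4%. The interferon-related TTCNNNGAA was in 3 of 47 (6.38%) against 8.30%, namely those of Psmb8, Psmd2 and Psmg1. The interferon-stimulated response element, searched as GAAA repeated after any pair of bases, was in 5 of 47 (10.6%) against 3.44%. These were promoters of Psme1, Psmb3, Psmd4, Psmd9 and Psmg4. Each of these 2 motifs was in 1 of 6 immunoproteasome promoters. A match describes letters only.

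Windows from 130 bases before to 20 bases after the start are shown for genes on which the results turn: Psmb5, the core gene with the clearest fall, Psmb6, its catalytic neighbour that did not pass, Psme4, which rose most clearly, and Psmb8 of the immunoproteasome. Each reads from 5′ to 3′ on the strand of the gene, and capitals mark TGACNNNGC or its reverse complement GCNNNGTCA, and in Psmb8 TTCNNNGAA.
Psmb5 (chr14:54617976-54618125, minus strand): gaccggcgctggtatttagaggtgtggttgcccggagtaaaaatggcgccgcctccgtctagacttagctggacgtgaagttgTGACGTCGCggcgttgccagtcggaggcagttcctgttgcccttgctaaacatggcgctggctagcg
Psmb6 (chr11:70525227-70525376, plus strand): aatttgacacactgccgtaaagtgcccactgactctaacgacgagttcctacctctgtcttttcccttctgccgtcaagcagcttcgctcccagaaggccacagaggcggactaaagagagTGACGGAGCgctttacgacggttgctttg
Psme4 (chr11:30771645-30771794, plus strand): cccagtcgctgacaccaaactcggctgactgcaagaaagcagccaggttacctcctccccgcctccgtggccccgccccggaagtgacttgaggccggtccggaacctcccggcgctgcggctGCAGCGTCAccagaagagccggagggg
Psmb8 (chr17:34198065-34198214, plus strand): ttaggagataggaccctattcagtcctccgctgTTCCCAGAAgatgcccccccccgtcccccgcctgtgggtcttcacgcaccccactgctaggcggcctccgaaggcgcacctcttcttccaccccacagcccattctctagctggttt
The marked letters begin 47 bases before the start in Psmb5, 9 before it in Psmb6, 7 before it in Psme4, where they lie in the opposite orientation, and 97 before it in Psmb8, whose RefSeq start lies inside the span that GENCODE gives the gene. The letters TGACNNNGC or their reverse complement are thus marked in Psmb5, which fell, Psmb6, which did not pass, and Psme4, which rose. Any effect of these letters was not tested.

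In the 20S core, 2 of 15 genes fell and none rose, a share of 13.3%, beside 51.2% of all genes called and 25.7% called as lower. Leaving out GFP replicate 2 gave 4 lower and none higher, GFP replicate 3 gave 1 lower and 1 higher, CRE replicate 1 gave 1 lower and none higher, and GFP replicate 1 or CRE replicate 3 gave 3 lower and none higher. At an unadjusted p under 0.05 there were 4 lower and 1 higher, and DESeq2 and limma-voom likewise called 2 lower and none higher. Psmb5 (chr14:54614119-54618022), which carries the chymotrypsin-like site, was at 55.96, 57.9 and 59.6 CPM in GFP and at 46.4, 47.8 and 47.3 CPM in CRE. Every CRE library was below every GFP library, and the gene fell to 0.816 of its GFP level (log2 -0.29 ± 0.05, SE, edgeR adjusted p = 0.000637). Psma5 (chr3:108256926-108279974), an alpha-ring subunit, was at 76.7, 82.1 and 84.2 CPM in GFP and 69.5, 72.8 and 71.9 CPM in CRE, again without overlap (log2 -0.18 ± 0.05, edgeR adjusted p = 0.0117). The fall of Psmb5 passed under every setting tried other than the fold threshold of the study, with a log2 change between -0.32 and -0.13. That of Psma5 was lost without GFP replicate 3 (edgeR adjusted p = 0.0508) or CRE replicate 1 (0.0532). It was lost as well in the FPKM fit and with library size alone, where its log2 change was -0.02.

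The other constitutive catalytic subunits did not pass with all libraries and TMM scaling. Psmb6, with the caspase-like site, was at 51.3, 48.3 and 58.8 CPM in GFP and 62.4, 54.2 and 56.3 CPM in CRE, with overlapping groups (log2 0.13 ± 0.08, edgeR adjusted p = 0.208). Psmb7, with the trypsin-like site, was at 71.7, 73.4 and 73.6 CPM and then 80.9, 78.8 and 76.9 CPM. Its CRE libraries all lay above its GFP libraries, but the change did not pass (log2 0.11 ± 0.04, edgeR adjusted p = 0.0549). Some alternatives did give a call, each as higher. Psmb6 passed without GFP replicate 3 (edgeR adjusted p = 0.0444), when only library size was scaled (0.00927) and in the FPKM fit (limma, 0.0162). Psmb7 passed with upper-quartile scaling (edgeR adjusted p = 0.0284), with at least 10 counts required in every library (0.0462), when only library size was scaled (0.000399) and in the FPKM fit (limma, 0.000756). Psmb7 shares exon bases with Nek6 on the other strand, and whether the counting used strand is not given in the sources used here. Psma4, Psmb9, Psmc3, Psmc3ip, Psmd1, Psmd13, Psme1 and Psme3ip1 likewise overlap a protein-coding gene on the other strand, so their counts carry the same uncertainty.

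No other core gene passed. Psma1, Psma2, Psma3, Psma7 and Psmb1 to Psmb4, 8 genes in all, had log2 changes between -0.13 and 0.04. Psma4, at 125, 132 and 135 CPM in GFP and 139.8, 140.2 and 133 CPM in CRE, and Psma6, at 82.8, 87.3 and 89.9 and 95.9, 86.9 and 91.5 CPM, had log2 changes of 0.08 and 0.08 and overlapping groups, and neither passed (edgeR adjusted p = 0.193 and 0.248). Psma8, a subunit of testis proteasomes, had 13 to 39 counts per library, at 1.06, 1.86 and 2.03 CPM in GFP and 0.752, 0.7199 and 1.37 CPM in CRE. Its groups overlapped and its log2 change of -0.80 ± 0.35 did not pass (edgeR adjusted p = 0.07995). It did pass without GFP replicate 1 (log2 -1.03, edgeR adjusted p = 0.0259) or without CRE replicate 3 (log2 -1.17, edgeR adjusted p = 0.0342). The median log2 change of the 15 core genes was -0.06, with 10 negative and 5 positive, and without Psma8 it was -0.05. With library size alone the median was 0.11, and 6 core genes passed as higher and 1 as lower. The median of all 12862 genes was then 0.17, with 5529 higher and 2083 lower.

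In the 19S cap, 7 of 17 genes rose and none fell. When only library size was scaled, and likewise in the FPKM fit, all 17 passed as higher. Of the 12862 genes tested, 5529 and 4976 were higher in these 2 fits. At an unadjusted p under 0.05 there were 10 higher and none lower, DESeq2 called 6 higher and none lower, and limma-voom called 9 higher and none lower. The median log2 change was 0.10, 15 of 17 were positive, and 11 of 17 were higher in every CRE library than in every GFP library, beside 59.6% of all genes whose groups did not overlap in either direction. The share called, all as higher, was 41.2%, where 25.5% of all genes passed as higher. No test of the class as a whole was made.

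The largest changes among non-ATPase cap subunits were in parts of the lid, the portion of the cap that holds the deubiquitinase. The lid did not rise as a whole, since the deubiquitinase gene Psmd14 did not pass (log2 -0.04, edgeR adjusted p = 0.505). Psmd8 (chr7:29174188-29180701) was at 133, 112 and 122 CPM in GFP and 155, 144 and 152 CPM in CRE, 1.23-fold higher (log2 0.29 ± 0.06, edgeR adjusted p = 0.00291). Psmd12 (chr11:107479484-107504362) was at 101, 103 and 104 CPM and then 129, 122 and 119 CPM, 1.202-fold higher (log2 0.27 ± 0.05, edgeR adjusted p = 0.000771). Both rose with no overlap between groups, and so did the next pair. Psmd13 (chr7:140881968-140898643), whose exons overlap those of Sirt3 on the other strand, went from 87.8, 87.7 and 81.3 CPM to 103, 102 and 100.1 CPM (log2 0.25 ± 0.05, edgeR adjusted p = 0.00137). Psmd3, named after its values were seen, went from 112, 112 and 114 CPM to 126, 136 and 133 CPM (log2 0.23 ± 0.05, edgeR adjusted p = 0.00177). These 4 passed under every setting tried other than the fold threshold of the study.

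The non-ATPase cap subunits with the lowest log2 fold changes did not pass with all libraries and TMM scaling. Psmd14, the deubiquitinase of the lid, was at 107, 103 and 103 CPM in GFP and 99.2, 103 and 102 CPM in CRE (log2 -0.04, edgeR adjusted p = 0.505). Psmd11 was at 115, 112 and 113 CPM and then 109.9, 111 and 116 CPM (log2 -0.01, edgeR adjusted p = 0.813). These were the only cap genes with a negative value, and both passed as higher when only library size was scaled, at 0.13 and 0.15 (edgeR adjusted p = 0.0290 and 0.0138), and in the FPKM fit (limma, 0.0310 and 0.00679). Psmd1, a scaffold of the cap base, was at 256, 254 and 244 CPM and then 255, 261 and 259 CPM (log2 0.04, edgeR adjusted p = 0.455). The remaining Psmd2, Psmd4, Psmd6 and Psmd7 had log2 changes between 0.04 and 0.10, and none passed.

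All 6 ATPases of the cap had positive values, and 3 passed as higher, where 25.5% of all genes tested did so. Among genes whose mean level lay within the range of the core and cap subunits, 28.5% passed as higher. Psmc3 (chr2:91054009-91066369) was at 131, 125 and 125 CPM in GFP and 146, 141 and 139 CPM in CRE (log2 0.16 ± 0.04, edgeR adjusted p = 0.01197). Psmc5 was at 72.9, 71.1 and 77.1 CPM and then 80.6, 80.4 and 84.1 CPM (log2 0.15 ± 0.05, edgeR adjusted p = 0.0264). Psmc6 was at 157, 156 and 165 CPM and then 184, 172 and 174 CPM (log2 0.15 ± 0.05, edgeR adjusted p = 0.0223). In all 3 the groups did not overlap, but the margin was small. Psmc5 no longer passed without GFP replicate 1 (edgeR adjusted p = 0.0560), GFP replicate 2 (0.0929) or CRE replicate 3 (0.0908) or with DESeq2 (0.0748), Psmc6 without GFP replicate 2 (edgeR, 0.0721) or CRE replicate 1 (0.0810), and Psmc3 without GFP replicate 3 (edgeR, 0.0508).

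The other ATPases did not pass with all libraries and TMM scaling. Psmc1 was at 126, 124 and 125 CPM in GFP and 136, 129.5 and 142 CPM in CRE, without overlap (log2 0.12 ± 0.05, edgeR adjusted p = 0.0512). It passed as higher under 6 alternatives, namely without CRE replicate 2 (edgeR adjusted p = 0.0303), with upper-quartile scaling (0.0274), with at least 10 counts required in every library (0.0419), with limma-voom (0.0468), when only library size was scaled (edgeR, 0.000441) and in the FPKM fit (limma, 0.00112). Psmc2 was at 121, 121 and 126 CPM and 136, 120.1 and 128 CPM (log2 0.06, edgeR adjusted p = 0.354). Psmc4 was at 82.7, 80.4 and 81.6 CPM and 82.7, 83.96 and 82.05 CPM (log2 0.02, edgeR adjusted p = 0.663). The 6 genes code for a ring that holds each ATPase once, and their log2 changes ran from 0.02 to 0.16.

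**Figure D3:**
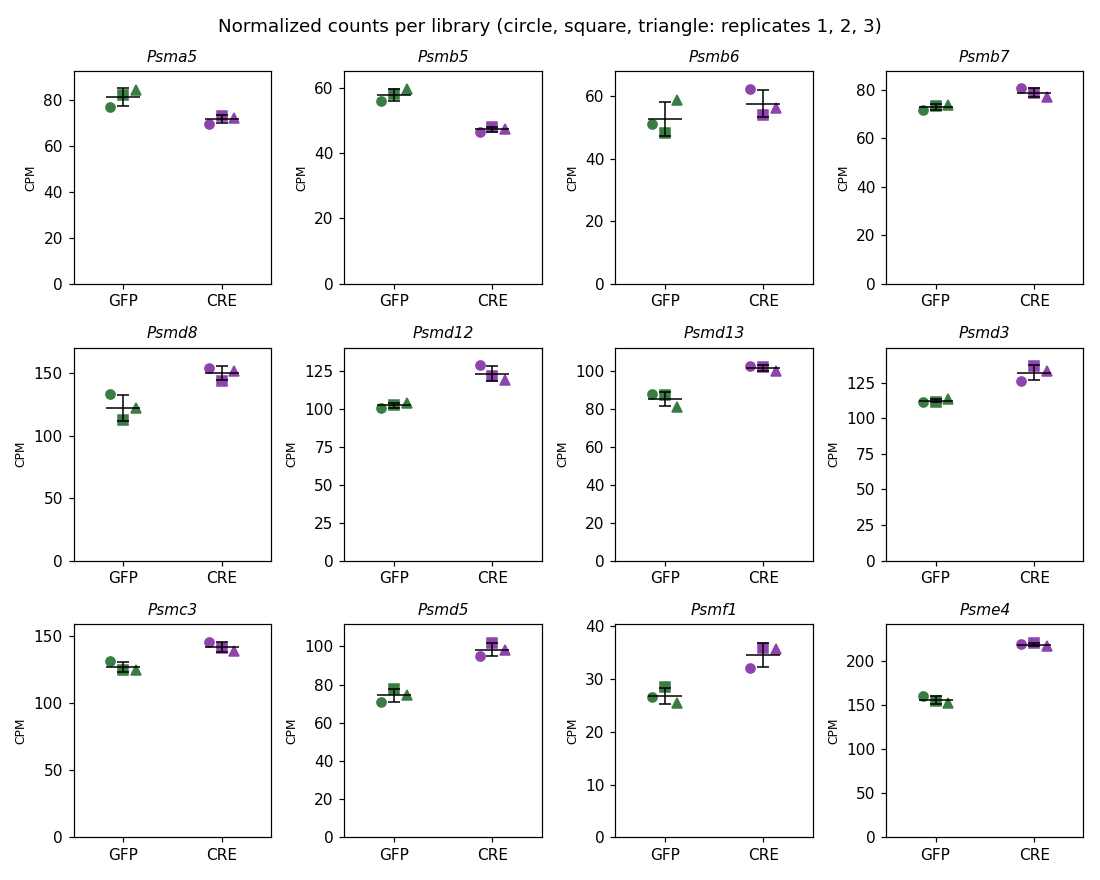
CPM of 12 proteasome genes in each of the 6 libraries, with the group mean and bars of 1 SD (n = 3), from 0 on a linear axis. Psma5 and Psmb5 are lower in every CRE library, Psmb6 overlaps between groups, and the other 9 are higher in every CRE library.

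Summed over each class, cap transcripts were higher relative to core transcripts in CRE than in GFP libraries. Cap transcripts summed to 2289.8, 2249 and 2267 CPM in GFP and 2479.5, 2434 and 2449.6 CPM in CRE, while core transcripts summed to 1237, 1247 and 1307 CPM and then 1269, 1222 and 1224 CPM. On this TMM scale the cap sums did not overlap between groups and the core sums did. As a share of all counts, and on FPKM, the core sums were higher in every CRE library as well, 1.10 times the GFP mean on either scale, beside 1.21 and 1.22 times for the cap. The ratio of cap to core CPM within a library, which does not depend on how libraries are scaled to each other, was 1.851, 1.804 and 1.74 in GFP and 1.95, 1.99 and 2.002 in CRE, a mean of 1.80 ± 0.058 against 1.98 ± 0.025 (SD, n = 3). Every CRE library had a higher ratio than every GFP library, and the ratio of the means was 1.10. From FPKM, which weights genes per length, the ratio was 1.09 ± 0.033 in GFP and 1.21 ± 0.013 in CRE. These sums are given as a description, with no test. The median change of the cap exceeded that of the core by 0.15 on the log2 scale, and by 0.13 to 0.18 when a library was left out.

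**Figure D4:**
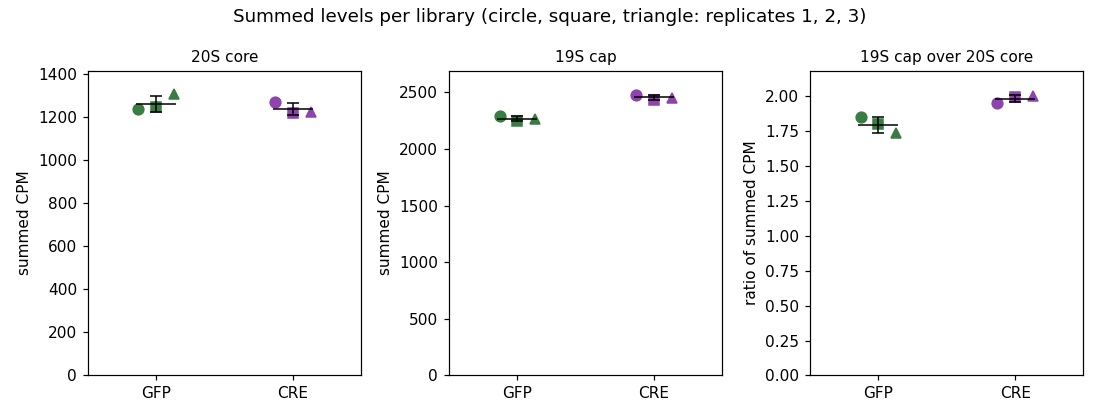
Summed CPM of the 15 core genes, of the 17 cap genes, and the ratio of cap to core in each library, from 0 on linear axes, with the group mean and bars of 1 SD (n = 3). The ratio is between 1.74 and 1.851 in GFP libraries and between 1.95 and 2.002 in CRE libraries.

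Of the 5 immunoproteasome genes 2 fell and none rose, with a median log2 change of -0.18. The median was -0.015 when only library size was scaled and -0.0039 in the FPKM fit, and no gene of the class passed in either. With TMM scaling, 25.7% of all genes passed as lower and 25.5% as higher. No immunoproteasome gene was higher at an unadjusted p under 0.05, by DESeq2 or by limma-voom either. Psmb10 (chr8:105935735-105938444) was at 20.4, 24.6 and 28.3 CPM in GFP and 19.02, 20.1 and 16.6 CPM in CRE (log2 -0.40 ± 0.12, edgeR adjusted p = 0.0168). Psme1 (chr14:55578123-55581529), a subunit of the interferon-induced activator, was at 40.2, 50.2 and 52.8 CPM and then 38.95, 39.8 and 31.9 CPM (log2 -0.38 ± 0.11, edgeR adjusted p = 0.0152). Both were lower in every CRE library. Both calls were lost without GFP replicate 3 (edgeR adjusted p = 0.0752 and 0.0682), without CRE replicate 3 (0.0713 and 0.0635), when only library size was scaled (0.111 and 0.118) and in the FPKM fit (limma, 0.162 and 0.176). Without GFP replicate 3, Psmb5 was the only proteasome gene lower, of 4 with all libraries. The leukocyte marker sum, 58.6 to 66.4 CPM in GFP, was also lower in CRE, at 35.2 to 38.4 CPM. So were the fibroblast sum (29251 to 30418 against 18095 to 19506 CPM) and the endothelial sum (386 to 431 against 174 to 201 CPM). The part of these marker changes in the results was not tested.

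Psme2 (chr14:55587441-55591113), the partner of Psme1 in the activator, was at 48.5, 65.2 and 69.9 CPM in GFP and 54.9, 59.3 and 48.6 CPM in CRE. The groups overlapped through GFP replicate 1, and the change did not pass (log2 -0.18 ± 0.12, edgeR adjusted p = 0.246). Without GFP replicate 1 it passed as lower (log2 -0.32, edgeR adjusted p = 0.00456). Psme2b, whose transcript matches that of Psme2 at 789 aligned bases and differs at 5, was at 4.35, 4.45 and 4.47 CPM and then 3.92, 4.38 and 3.38 CPM (log2 -0.19, edgeR adjusted p = 0.332), and how reads were split between the copies makes both values uncertain.

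Psmb8 and Psmb9 lie in the class II region of the major histocompatibility complex, on either side of the peptide transporter gene Tap1 (chr17:34187553-34197225). Psmb8 (chr17:34197721-34201454) was at 12.7, 22.9 and 25.8 CPM in GFP and 27.6, 23.9 and 18.8 CPM in CRE (log2 0.19 ± 0.22, edgeR adjusted p = 0.504). Its GFP replicate 1 lay far below the other GFP libraries, and without it the log2 change was -0.06 (edgeR adjusted p = 0.738). Psmb9 (chr17:34181987-34187764) had 29 to 74 counts per library, at 1.87, 1.63 and 3.53 CPM in GFP and 3.98, 2.77 and 3.43 CPM in CRE, with overlapping groups (log2 0.52 ± 0.29, edgeR adjusted p = 0.1597). It passed as higher without GFP replicate 3 (log2 0.95, edgeR adjusted p = 0.0145). Psmb9 exons overlap those of Tap1 on the other strand, so the counts of the pair are uncertain.

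At the RNA level, each immunoproteasome subunit can be set against the subunit it replaces as a ratio within a library. RNA does not measure which subunits were built into proteasomes. On FPKM, Psmb8 was at 20.2, 34.8 and 37.9% of Psmb5 in GFP and at 51.4, 44.7 and 35.2% in CRE. Psmb9 was at 2.15, 2.20 and 3.86% of Psmb6 and then 3.83, 3.01 and 3.60%. Psmb10 was at 25.2, 29.6 and 34.1% of Psmb7 and then 20.8, 22.6 and 19.1%. Of these 3 pairs, only Psmb10 to Psmb7 did not overlap between groups, with every CRE library lower. On the log2 scale of counts the differences, CRE minus GFP, were 0.53 for Psmb8 to Psmb5, 0.47 for Psmb9 to Psmb6 and -0.50 for Psmb10 to Psmb7. With a library left out, these ran from 0.25 to 0.71, from 0.31 to 0.72 and from -0.61 to -0.39. None of the 3 pairs passed: the exact two-sided permutation p was 0.2, 0.2 and 0.1, and 0.2 for each after adjustment over the 3 pairs, where 3 libraries against 3 allow no p under 0.1.

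**Figure D5:**
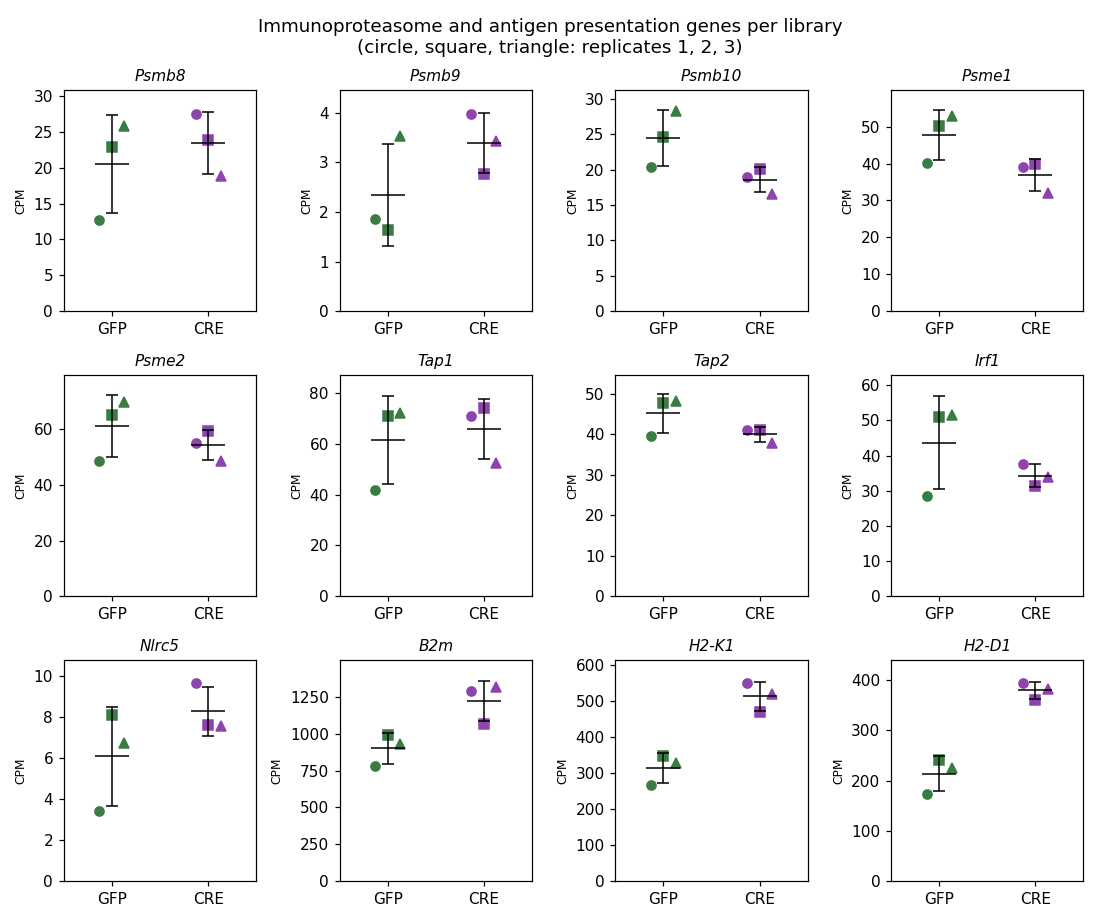
CPM of the 5 immunoproteasome genes and of 7 genes of antigen presentation and its regulation in each library, from 0 on linear axes, with the group mean and bars of 1 SD (n = 3). GFP replicate 1 (green circle) is the lowest GFP library in every panel other than Psmb9, and B2m, H2-K1 and H2-D1 are higher in every CRE library.

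GFP replicate 1 was the lowest GFP library for 4 of 5 immunoproteasome genes and for 15 of 17 genes of a list of antigen presentation genes, against 34.7% of all genes tested, 9 of 15 core genes and 3 of 17 cap genes. In that list 5 genes passed as higher and 2 as lower, 41.2% of 17, beside 51.2% of all genes tested. B2m, the light chain of class I molecules, was at 783, 988 and 930.2 CPM in GFP and 1285, 1067 and 1314 CPM in CRE (log2 0.44 ± 0.09, edgeR adjusted p = 0.00287), without overlap. The heavy chains H2-K1 and H2-D1, named after their values were seen, rose as well (log2 0.70 and 0.83, edgeR adjusted p = 0.000118 and 7.36e-05). So did the interferon gamma receptor genes Ifngr1 and Ifngr2, while the chaperones of class I loading Calr and Pdia3 fell (log2 -0.33 and -0.35, edgeR adjusted p = 0.000149 and 6.35e-05).

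The genes of the peptide transporter and 2 regulators of transcription did not pass. Tap1 was at 41.7, 70.97 and 71.96 CPM in GFP and 70.9, 74.2 and 52.5 CPM in CRE (log2 0.09, edgeR adjusted p = 0.705), and Tap2 at 39.7, 47.6 and 48.2 and 40.99, 41.1 and 37.8 CPM (log2 -0.18, edgeR adjusted p = 0.07995). Irf1, a transcription factor induced by interferon, was at 28.4, 50.9 and 51.5 CPM and then 37.7, 31.2 and 34.00 CPM (log2 -0.35, edgeR adjusted p = 0.136). In each of these 3, GFP replicate 1 was the lowest GFP library. Without it, Irf1 and Tap2 passed as lower, making 4 lower in the list (log2 -0.58 and -0.26, edgeR adjusted p = 6.06e-05 and 0.00368) and Tap1 had a log2 change of -0.12. Nlrc5, the transactivator of class I genes, was at 3.42, 8.12 and 6.75 CPM and then 9.67, 7.64 and 7.55 CPM, and Tapbp, which bridges transporter and class I molecule, at 321, 439 and 395 and 407, 438 and 386 CPM (log2 0.43 and 0.09, edgeR adjusted p = 0.167 and 0.454). The log2 change of Nlrc5 ran from 0.16 to 0.68 with a library left out and from 0.10 to 0.59 under the other alternatives. It passed as higher under 1 alternative.

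Of the 7 assembly chaperones, 1 rose and none fell, where 25.5% of all genes passed as higher and 25.7% as lower. There were 2 higher without GFP replicate 2, without CRE replicate 2 or with upper-quartile scaling, and 3 when only library size was scaled or in the FPKM fit. With library size alone 5529 of the 12862 genes tested were higher, and in the FPKM fit 4976. At an unadjusted p under 0.05, there were 2 higher and none lower. DESeq2 and limma-voom each called 1 higher and none lower. Psmd5 (chr2:34849734-34874968), a chaperone of the ATPase ring named after its values were seen, was at 71.1, 77.7 and 74.6 CPM in GFP and 94.99, 102 and 97.9 CPM in CRE, 1.32-fold higher with no overlap (log2 0.40 ± 0.05, edgeR adjusted p = 0.000104). The other base chaperones Psmd9 and Psmd10 had log2 changes of 0.01 and -0.14 and did not pass (edgeR adjusted p = 0.929 and 0.0934).

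The chaperones of the alpha ring did not pass with all libraries and TMM scaling. Psmg1 was at 11.4, 12.1 and 11.9 CPM in GFP and 12.5, 10.5 and 12.1 CPM in CRE, and its partner Psmg2 at 11.2, 13.8 and 11.2 CPM and then 14.2, 13.9 and 14.04 CPM (log2 -0.01 and 0.22, edgeR adjusted p = 0.9500 and 0.0957). Psmg3 was at 4.35, 5.07 and 4.88 CPM and then 7.15, 5.21 and 6.28 CPM, and its partner Psmg4 at 3.42, 3.78 and 3.79 CPM and then 2.47, 3.49 and 3.54 CPM (log2 0.38 and -0.21, edgeR adjusted p = 0.0584 and 0.366). Psmg2 and Psmg3 were higher in every CRE library, and Psmg1 and Psmg4 overlapped between groups. Psmg2 passed as higher without GFP replicate 2 (edgeR adjusted p = 0.0181), when only library size was scaled (0.00843) and in the FPKM fit (limma, 0.00703). Psmg3 did so without CRE replicate 2 (edgeR adjusted p = 0.0250), with upper-quartile scaling (0.0478), when only library size was scaled (0.0103) and in the FPKM fit (limma, 0.00970). Pomp, which is not a Psm gene and closes the maturing core, was at 57.1, 59.8 and 63.6 CPM and then 72.05, 66.7 and 70.2 CPM, and rose (log2 0.21 ± 0.06, edgeR adjusted p = 0.00956), but did not pass on FPKM (limma, log2 0.15, adjusted p = 0.470).

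The smallest adjusted p of the proteasome genes was that of Psme4 (chr11:30771726-30880361), a nuclear activator that opens the core without ubiquitin or ATP. It was at 161, 154 and 153 CPM in GFP and 219, 219.6 and 217 CPM in CRE, a mean of 156 ± 4.31 against 218 ± 1.48 CPM (SD, n = 3). Every CRE library lay above every GFP library by a margin wider than the range within either group. The gene was 1.402-fold higher (log2 0.49 ± 0.04, edgeR adjusted p = 8.78e-06). Psmf1 (chr2:151715812-151744186), an inhibitor that binds the core, was at 26.7, 28.5 and 25.5 CPM and then 32.02, 35.9 and 35.7 CPM, 1.29-fold higher without overlap (log2 0.36 ± 0.07, edgeR adjusted p = 0.00163). Psme3, the nuclear relative of Psme1 and Psme2, was at 99.6, 93.3 and 97.5 CPM and 94.3, 100.1 and 100.3 CPM (log2 0.02, edgeR adjusted p = 0.725). Psme4, Psmf1 and Psmd5 passed under every setting tried other than the fold threshold of the study, and Psme4 and Psmf1 were named after their values were seen.

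Of the 3 genes that only share the symbol, Psme3ip1, also named after its values were seen, was at 38.4, 38.2 and 34.03 CPM in GFP and 41.4, 45.5 and 41.3 CPM in CRE and rose (log2 0.21 ± 0.07, edgeR adjusted p = 0.02302). It no longer passed without GFP replicate 3 (edgeR adjusted p = 0.0957), without CRE replicate 2 (0.0860) or on FPKM (limma, 0.102). Psmc3ip, known from meiotic recombination, was at 0.311, 0.789 and 1.35 CPM and then 1.29, 1.55 and 0.9504 CPM and did not pass (log2 0.58 ± 0.43, edgeR adjusted p = 0.279).

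A list of 30 genes that work with the proteasome had 11 higher and 6 lower, 56.7% beside 51.2% of all genes tested, with a median log2 change of 0.05. Without CRE replicate 2 there were 3 lower. With library size alone 20 were higher and 1 lower, beside 5529 and 2083 of the 12862 genes tested. The transcription factor Nfe2l1, which drives subunit genes when the proteasome is inhibited, was at 762, 693 and 747 CPM in GFP and 705, 705 and 731 CPM in CRE (log2 -0.04 ± 0.05, edgeR adjusted p = 0.497). Ngly1 and Ddi2, which strip sugars from it and cleave it before it becomes active, had log2 changes of 0.23 ± 0.06 and 0.08 ± 0.06, and only Ngly1 passed (edgeR adjusted p = 0.00699 against 0.276). Its relative Nfe2l2, the oxidative stress factor, had a log2 change of 0.05 ± 0.07 (edgeR adjusted p = 0.581).

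Among enzymes and receptors bound to the cap, Uchl5, a deubiquitinase, was at 15.1, 15.95 and 16.4 CPM in GFP and 20.4, 21.04 and 22.02 CPM in CRE and rose without overlap (log2 0.42 ± 0.07, edgeR adjusted p = 0.0009295). Its receptor in the cap, Adrm1, and the other cap-bound deubiquitinase, Usp14, had log2 changes of 0.05 and 0.06 (edgeR adjusted p = 0.4596 and 0.247). The ubiquitin gene Ubb and the ubiquitin-activating gene Uba6, named after their values were seen, rose (log2 0.14 and 0.40, edgeR adjusted p = 0.0153 and 7.85e-05), while Rps27a, which codes for ubiquitin fused to a ribosomal protein and was named in the same way, fell (log2 -0.42, edgeR adjusted p = 0.000822). Uba1 did not pass. In all, 2 of the 6 listed ubiquitin and ubiquitin-activating genes rose and 2 fell, with a median log2 change of -0.09. Of 11 genes that deliver substrates to the proteasome, 5 rose and 3 fell, where 25.5% of all genes passed as higher and 25.7% as lower.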

How the data were processed

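RNA-seq of 6 libraries, 3 GFP and 3 CRE, was analysed from a gene table. The methods of the study name Trimmomatic for trimming, HISAT2 for alignment to GRCm38 and HTSeq-count for the raw counts that the authors deposited. FPKM values in the same table were made by the authors with Cufflinks. Versions and the strand setting are not given in the sources used here, and the labels and the methods name different RNA and library kits. The deposited group means, fold changes, p-values and FDR of the authors' own comparison were not used.

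Counts were fitted with edgeR 4.0.16 in R 4.3.3 (TMM scaling, genes kept by filterByExpr with a minimum count of 10 and a total of 15, glmQLFit and glmQLFTest, two-sided, no covariate), with Benjamini-Hochberg adjustment over the 12862 genes tested and a threshold of 0.05. The fit was tested on simulated data in which few genes changed and no shift between the groups was set. That test therefore does not bear on the scaling between groups. FPKM was used for levels between genes and, as log2(FPKM + 1), in an alternative with limma 3.58.1. Its fold changes understate changes of low genes. Other alternatives were DESeq2 1.42.0, limma-voom, RLE and upper-quartile scaling, library size alone, other count filters, a replicate block, the study's fold threshold and leaving out each library. Ratios of catalytic subunits, with 0.5 added to counts, were compared by an exact permutation test (scipy 1.17.1). No pair of libraries of a group looked like a repeat of the same library: the chi-square of their counts, divided by its degrees of freedom, was 3.94 to 11.7. The highest values, 11.7 and 9.07, were those of GFP replicate 1 with GFP replicates 2 and 3, and the other pairs lay between 3.94 and 5.32.

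Gene positions come from GENCODE M21 (GRCm38), which held 21973 of the 22063 gene identifiers. Exons of 16 proteasome genes overlap another gene, 13 of them on the other strand.

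Proteasome genes, the lists and the tests were chosen with earlier results of these data known. By rule, values per library were given for the catalytic and immunoproteasome subunits, Psmg1 to Psmg4, and the 3 top and 3 bottom fold changes of the 20S core, the 19S ATPases and the other cap subunits. Those of Psma6, Psme2b, Psme3 and Psmc3ip were given outside this rule. Outside the proteasome genes the rule named Tet3, Nfe2l1, Nfe2l2, Ddi2, Ngly1, Pomp, Adrm1, Usp14, Uchl5, Tap1, Tap2, Tapbp, B2m, Irf1 and Nlrc5. Some further genes of the rule and the lists are not reported here by name. Paaf1, on the list of partners, was not analysed here.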

Additional observations from a re-analysis of the deposited data

How the results depend on the processing

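Proteasome genes passed as higher or lower in numbers of 11 and 4. These were 30 and 1 with library size alone, 29 and 1 on FPKM, 0 and 1 by the fold threshold of the study, and 10 to 12 and 1 to 6 when 1 library was left out. Partner genes (11 higher, 6 lower) numbered 20 and 1 with library size alone, 1 lower on FPKM, 1 and 0 by the study's threshold, and 8 to 11 and 3 to 6 with a library left out. Antigen presentation genes (5 and 2) numbered 10 higher with library size alone, 2 and 0 by the study's threshold, and 5 to 6 and 2 to 4 with a library left out. The median log2 change with library size alone and on FPKM was 0.11 and 0.11 for the core, 0.26 and 0.26 for the cap, 0.17 and 0.31 for the chaperones and -0.015 and -0.0039 for the immunoproteasome, and with a library left out it ran from -0.07 to -0.02, from 0.09 to 0.11 and from -0.02 to 0.07, and from -0.32 to -0.07 for the immunoproteasome. The summed level of all proteasome genes in CRE over GFP, 1.06, was 1.16 on FPKM. Library size alone and FPKM shift the whole table, and the cause of that shift was not tested.

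Sign changes were seen for genes that did not pass with all libraries and TMM scaling. With the sign turned, Psmd11 and Psmd14 passed for library size and FPKM, and Nfe2l1 for library size. With library size alone, on FPKM and with upper-quartile scaling, Psmg1 was at 0.15, 0.087 and 0.010 and Psmd11 at 0.15, 0.21 and 0.0052. For library size and FPKM, Psmd14 was at 0.13 and 0.12 and Nfe2l1 at 0.12 and 0.051. With a library left out, Psmg1 ran from -0.054 to 0.067, Psmd11 from -0.035 to 0.0068, Nfe2l2 from -0.014 to 0.12, Psmb8 from -0.058 to 0.39, Tap1 from -0.12 to 0.24 and Tapbp from -0.025 to 0.19. The last 3 were negative without GFP replicate 1. Of the values for single genes under the alternatives, 636 kept direction and side of the threshold, 44 came to pass, 23 no longer passed and 17 changed sign.

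With the replicate number as a block, 11 proteasome genes were higher and 4 lower. Libraries of the same number correlated at 0.046, 0.18 and -0.018 in their deviations from the group means, so the numbers were not taken as pairs. Low counts limit Psma8, Psmb9 and Psmc3ip.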
